A study of Mus musculus with 8 samples.

Results

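The genes described here are the homeostatic chemokines, the lymphotoxins and the related cytokines that organise the lymph node (LN): Ccl19, Cxcl13, Cxcl12, Lta, Ltb, Ltbr, Tnfsf13b, Tnfsf11 and Il7. A gene was measured where a probe set on the array is annotated to it and to no other gene, and its brightest probe set by mean over the arrays stands for it. By this rule 8 of the 9 genes had a value, from 12 probe sets, among the 12393 genes of the array with a probe set of their own. Ccl19 had none, because the probe set that carries its name (1449277_at) is annotated to 10 genes, and no level is given for it. The probe sets used were 1417851_at for Cxcl13, 1448823_at for Cxcl12, 1420353_at for Lta, 1419135_at for Ltb, 1416435_at for Ltbr, 1460255_at for Tnfsf13b, 1419083_at for Tnfsf11 and 1436861_at for Il7.

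RNA was taken from LN of female and male C57BL/6 mice of 8 weeks, pooled from at least 3 mice, with 1 single-colour Affymetrix mouse array for each of 8 pools. The groups were H3RKO CFA+PTX, WT CFA+PTX, H3RKO CFA and WT CFA with 1 array each, and H3RKO untreated and WT untreated with 2 arrays each. H3RKO mice (B6.129P2-Hrh3tm1Twl) lack the histamine H3 receptor in all tissues. CFA is complete Freund's adjuvant, an oil emulsion with killed mycobacteria, and PTX is pertussis toxin, which blocks signalling through inhibitory G proteins. Treated mice were euthanized 24 h after injection and untreated mice had no injection, so no group shows the oil or the injection alone, and no group had PTX without CFA. Titles of the CFA+PTX arrays name only PTX while their descriptions name CFA with PTX, and the descriptions were followed. The sources do not give which LN were pooled, how many mice of each sex a pool held, or whether the 2 untreated pools of a genotype came from separate experiments, so p-values measure only the spread between these pools.

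Values are log2 signals, and the number of arrays limits their precision. The probe set of Hrh3 (1448807_at), the targeted gene, read 7.20 to 7.29 in the 4 arrays labelled H3RKO and 6.56 to 6.66 in the 4 WT arrays. Where it lies with respect to the targeted deletion is not given in the sources used here, and it therefore does not check the labels. Both T and B cell markers were well represented, with a mean log2 signal of 10.73 to 11.05 over 7 T cell genes and of 11.29 to 11.56 over 7 B cell genes. Markers of salivary and lacrimal glands set 2 arrays apart: their mean log2 signal over 9 genes was 5.23 in WT CFA+PTX and 9.61 in WT untreated replicate 1, against 12.65 to 13.42 in the other 6 arrays. For many of the comparisons that use those arrays, values without them are given for some genes where the design allows.

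Lymphotoxin is made by lymphocytes. Lta and Ltb encode its subunits, and the complex on the cell surface binds the receptor encoded by Ltbr on stromal cells, where the alternative NF-kB pathway maintains the chemokines that hold B cells and T cells in their own zones. The chemokine of Cxcl13 draws cells with Cxcr5 into follicles, that of Ccl19 draws cells with Ccr7 into the T zone, and that of Cxcl12 acts on Cxcr4. Tnfsf13b encodes BAFF, the survival factor of mature B cells. Tnfsf11 encodes RANKL, which is needed for LN to form, and Il7 encodes a survival factor of naive T cells made by fibroblastic reticular cells and lymphatic endothelium.

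Promoters show which known control elements lie near the starts of these genes. The 250 bases before each start were read from a RefSeq table (GRCm38.p6), which held 8 of the 9 genes, all but Il7, in 9 windows. They were searched on both strands for the core of the interferon response element, which reads GAAA, then NN (any bases), then GAAA, and for the kappaB consensus bound by NF-kB. The matches are shown because Tnfsf13b is the only organiser gene called in any fit that was run, and because the lymphotoxin receptor acts through NF-kB. That call came from 1 of 21 alternatives for CFA+PTX against untreated LN, and the main fit did not call the gene. Capitals mark the matched bases, and each stretch of 30 bases is written along the strand of its gene.
Tnfsf13b, chr8:10006603-10006632, plus strand: atcttacaaaaactGAAAGTGAAAtgcgga
Ccl19, chr4:42756554-42756583, minus strand: ttttgggacaGAAAGTGAAAgctcaaggca
Ltb, chr17:35194410-35194439, plus strand: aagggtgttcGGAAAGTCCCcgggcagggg
In Tnfsf13b the interferon-type match lay 16 to 7 bases before the second of its listed starts. In Ccl19 it lay 208 to 199 bases before the start. These were the 2 genes with that match, which 2.98% of 32851 promoter windows of the same length hold. The kappaB match of Ltb lay on the other strand, 87 to 78 bases before the start, and was the only one among these genes, against 7.25% of all windows. No match overlapped another. A match describes letters and not a site that was shown to work.

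After CFA+PTX, Il7 and Tnfsf13b had the largest differences from untreated LN among the organiser genes, higher by 0.74 ± 0.17 and 0.70 ± 0.10 on the log2 scale (difference ± SE, limma, 2 CFA+PTX and 4 untreated arrays). Cxcl13 was higher by 0.38 ± 0.10 and Cxcl12 by 0.20 ± 0.09, and for Lta the difference was −0.32 ± 0.06. Ltb, Ltbr and Tnfsf11 differed by at most 0.09. None of the 8 genes passed an adjusted p under 0.05, which 0% of the 22626 probe sets passed. At an unadjusted p under 0.05, limma had 4 of the 8 genes (Il7, Tnfsf13b, Cxcl13 and Lta), against 12.3% of all probe sets, and the linear model without moderation also called 0 after adjustment.

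**Figure D1:**
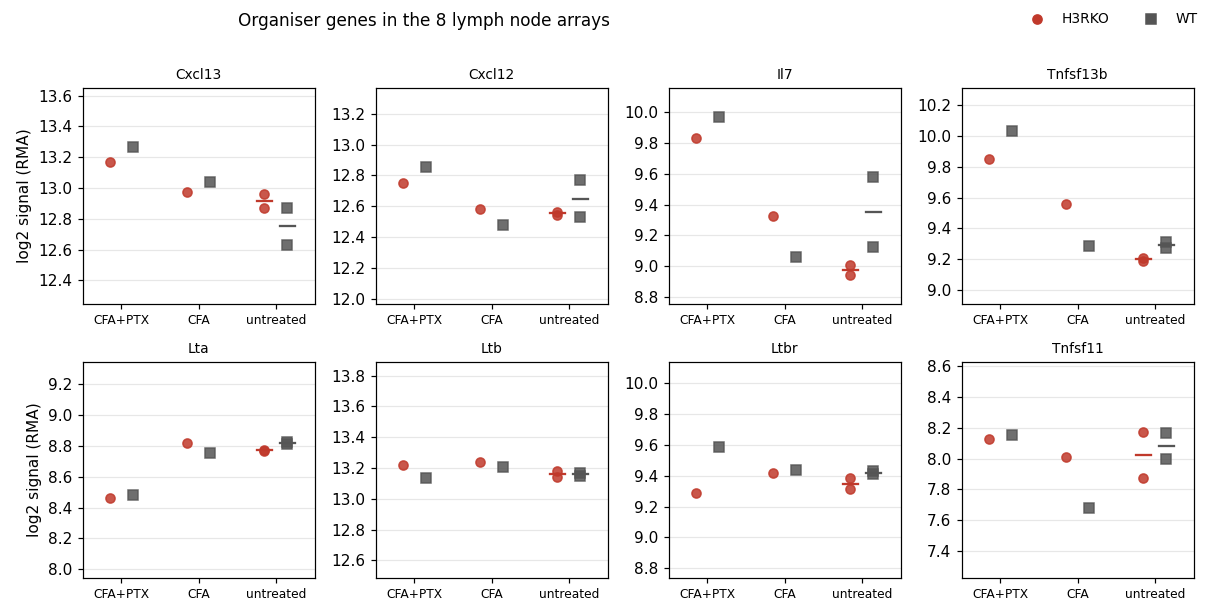
Log2 signal (RMA, vertical axis) of the 8 organiser genes in CFA+PTX, CFA and untreated LN, with H3RKO arrays as circles, WT arrays as squares and short lines at the means of the untreated pairs. All panels span the same height in log2 signal, each around its own midpoint. The CFA+PTX arrays of Il7, Tnfsf13b and Cxcl13 lie above, and those of Lta below, the other 6 arrays.

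Among the chemokines, Cxcl13 had a log2 signal of 13.17 in H3RKO CFA+PTX and 13.26 in WT CFA+PTX. It was 12.97 in H3RKO CFA and 13.04 in WT CFA, against 12.87 and 12.96 in untreated H3RKO LN and 12.63 and 12.87 in untreated WT LN. Both CFA+PTX arrays thus lay above the other 6, and both CFA arrays lay above the 4 untreated ones, the highest of which was 12.96. In fold terms Cxcl13 was 1.31-fold higher after CFA+PTX (adjusted p = 0.237, limma). Its second probe set gave a difference of 0.42 (adjusted p = 0.313, limma).

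By its brightest probe set, Cxcl12 was less separated. Its log2 signal was 12.75 in H3RKO CFA+PTX and 12.85 in WT CFA+PTX, against 12.54 and 12.56 in untreated H3RKO LN and 12.77 and 12.53 in untreated WT LN. The H3RKO CFA+PTX array lay below WT untreated replicate 1, so the groups overlapped. The adjusted p was 0.41, and the second probe set, with a difference of 0.31 ± 0.09, had an adjusted p of 0.28 (limma).

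Of the lymphotoxin genes, Lta was low in CFA+PTX arrays alone, at 8.46 in H3RKO CFA+PTX and 8.48 in WT CFA+PTX. The other 6 arrays lay between 8.76 and 8.82, with 8.82 in H3RKO CFA, 8.76 in WT CFA and a mean of 8.79 ± 0.03 (SD, n = 4) in untreated LN. The difference was nearly the same in each genotype, −0.31 in H3RKO and −0.34 in WT, and amounted to 1.25-fold less signal after CFA+PTX (adjusted p = 0.197, limma). Ltb, whose product anchors lymphotoxin in the membrane, had log2 signals of 13.13 to 13.24 in all 8 arrays. Its CFA+PTX mean of 13.18 lay beside an untreated mean of 13.16 ± 0.02 (SD, n = 4). The receptor gene Ltbr gave 9.29 in H3RKO CFA+PTX and 9.59 in WT CFA+PTX, on opposite sides of the untreated range of 9.31 to 9.43.

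Among the remaining cytokines of the TNF family, Tnfsf13b separated the CFA+PTX arrays from the rest. Its log2 signal was 9.85 in H3RKO CFA+PTX and 10.03 in WT CFA+PTX. After CFA alone it was 9.56 in H3RKO and 9.28 in WT, and untreated LN gave 9.19 and 9.21 in H3RKO and 9.27 and 9.31 in WT. The H3RKO CFA array therefore stood between the CFA+PTX arrays and the untreated arrays, while the WT CFA array stood within the untreated range. The CFA+PTX level was 1.62-fold that of untreated LN (adjusted p = 0.122, limma). With a trended and robust prior in limma the adjusted p was 0.0314, the lowest of 21 alternatives, which reached 0.867, and 33 probe sets in all passed in that fit. Tnfsf11 did not separate the treatments: the log2 signal was 8.13 in H3RKO CFA+PTX and 8.16 in WT CFA+PTX, within the untreated range of 7.87 to 8.17. Its brighter probe set gave a difference of 0.09 and its dimmer one −0.08.

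Il7 varied most among the organiser genes, with a span of 1.02 on the log2 scale over the 8 arrays. It read 9.83 in H3RKO CFA+PTX and 9.97 in WT CFA+PTX, then 9.33 in H3RKO CFA and 9.06 in WT CFA. Untreated LN read 9.01 and 8.94 in H3RKO and 9.58 and 9.12 in WT. Both CFA+PTX arrays lay above all others, and WT untreated replicate 1 came next, above both CFA arrays. The level after CFA+PTX was 1.67-fold that of untreated LN (adjusted p = 0.216, limma), and the dimmer probe set gave a difference of 0.69 (adjusted p = 0.248, limma). In order, CFA+PTX averaged 9.90, CFA 9.19 and untreated LN 9.16 ± 0.29 (SD, n = 4), so that CFA and untreated LN did not differ beyond the spread of the untreated arrays.

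Counted by arrays, 4 of the 8 genes had both CFA+PTX arrays beyond the other 6 on the same side, Cxcl13, Tnfsf13b and Il7 above and Lta below, against 12.4% of all probe sets. The same 4 genes had both CFA+PTX arrays beyond the 4 untreated arrays, against 21.8% of all probe sets. The median difference of the 8 genes was 0.15, beside 0.01 over all probe sets, with 7 higher and 1 lower. The gland markers move with this comparison, since WT CFA+PTX held little gland signal. Without WT CFA+PTX and WT untreated replicate 1, a fit added after the data were seen, the difference was 0.80 for Il7, 0.60 for Tnfsf13b, 0.27 for Cxcl13, 0.19 for Cxcl12 and −0.32 for Lta. With the gland level as a covariate it was 0.60 for Il7, 0.61 for Tnfsf13b, 0.40 for Cxcl13, 0.11 for Cxcl12 and −0.33 for Lta, and no gene passed in either fit.

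In the CFA+PTX groups PTX was added to CFA, and these groups were set against those with CFA alone. The differences were 0.71 ± 0.20 for Il7, 0.52 ± 0.11 for Tnfsf13b, 0.29 ± 0.14 for Tnfsf11, 0.27 ± 0.10 for Cxcl12, 0.21 ± 0.11 for Cxcl13 and −0.32 ± 0.07 for Lta (log2 ± SE, limma, 2 arrays each). Ltb and Ltbr differed by −0.04 and 0.01. Of the 8 genes 0 passed an adjusted p under 0.05 (lowest adjusted p = 0.855, limma), as did 0% of all probe sets. Lta, Tnfsf13b, Il7 and Cxcl12 had an unadjusted p under 0.05, 4 of 8 against 5.47% of probe sets, and the linear model without moderation called 0. The gland markers were lower in all 9 genes here, with a median difference of −3.71. Without WT CFA+PTX the differences were 0.72 for Il7, 0.42 for Tnfsf13b, 0.24 for Tnfsf11, 0.24 for Cxcl12, 0.12 for Cxcl13 and −0.32 for Lta. Without WT CFA they were 0.43 for Il7, 0.32 for Tnfsf13b, 0.10 for Tnfsf11 and 0.17 for Cxcl12. For Cxcl13 and Lta they were then larger, at 0.28 and −0.36, so that array also bore on the size of the differences. These differences share the CFA+PTX arrays with those against untreated LN and are not separate evidence. The median over the 8 genes was 0.24, beside 0.00 over all probe sets.

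CFA alone was set against untreated LN in the same model. The differences ran from −0.21 ± 0.12 for Tnfsf11 to 0.18 ± 0.10 for Tnfsf13b and 0.17 ± 0.10 for Cxcl13, and the other 5 were between −0.07 and 0.06. Tnfsf11 and Ltb were further from untreated LN after CFA than after CFA+PTX, and the other 6 genes were nearer to it. No gene passed an adjusted p under 0.05 (0.865 to 0.992, limma), which 0% of probe sets passed. At an unadjusted p under 0.05 there were 0 of 8 genes, against 6.25% of probe sets, and the linear model without moderation called 0 genes too. Both CFA arrays lay above the 4 untreated arrays for Cxcl13 and Ltb, 2 of 8 genes, against 14.5% of probe sets beyond on either side. Ltb read 13.24 in H3RKO CFA and 13.20 in WT CFA, against 13.14 to 13.18 in untreated LN. The gland markers were higher after CFA in all 9 genes, with a median difference of 0.46, and the untreated arrays here include WT untreated replicate 1. The CFA arrays of the 2 genotypes departed from each other for 3 genes. CFA minus the untreated mean of the same genotype was 0.36 in H3RKO and −0.01 in WT for Tnfsf13b. It was 0.35 in H3RKO and −0.29 in WT for Il7, and −0.01 in H3RKO and −0.40 in WT for Tnfsf11. The WT value of Il7 rests mostly on WT untreated replicate 1 at 9.58, since replicate 2 read 9.12 and WT CFA 9.06. The dimmer probe set of Tnfsf11 gave −0.07 in H3RKO and −0.26 in WT.

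**Figure D2:**
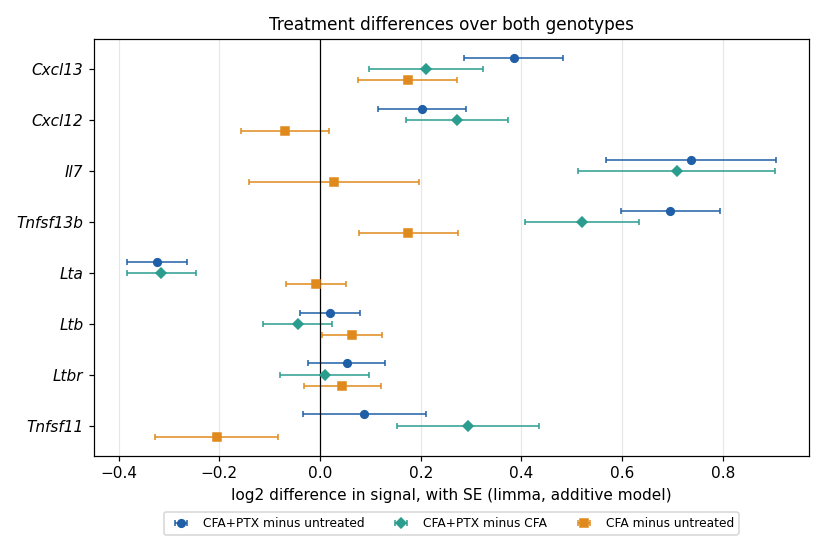
Log2 differences in signal (horizontal axis, limma additive model over both genotypes, bars are SE) for the 8 organiser genes: CFA+PTX minus untreated, CFA+PTX minus CFA, and CFA minus untreated. Il7 and Tnfsf13b stand furthest to the right in both CFA+PTX differences, at 0.74 and 0.70 against untreated LN, and Lta lies at −0.32 in both.

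The partners of these genes were read from a list of 39 receptors, related ligands, NF-kB genes and adhesion genes, of which 31 were measured. With limma none passed the threshold of any comparison, the thresholds that 0% of all probe sets passed by adjusted p and 0.15% to 0.362% by the criterion of the study. After CFA+PTX, among 14 receptors measured, the median difference from untreated LN was 0.00, and 7 were higher and 7 lower. The largest was Il7r, the receptor chain that binds the cytokine of Il7, with 12.13 in H3RKO CFA+PTX and 12.47 in WT CFA+PTX against 11.34 to 11.67 in untreated LN. This was a difference of 0.78 ± 0.13 (adjusted p = 0.154, limma). Ccr7, the receptor for the Ccl19 product, read 11.70 in H3RKO CFA+PTX and 11.91 in WT CFA+PTX against 11.25 to 11.41 in untreated LN, a difference of 0.47 ± 0.07 (adjusted p = 0.136, limma; 0.0314 with the trended and robust prior, the lowest of 20 alternatives, which reached 0.929). Cxcr4, the receptor for the Cxcl12 product, was higher by 0.56 ± 0.11 (adjusted p = 0.197, limma). Without WT CFA+PTX and WT untreated replicate 1 the differences were 0.61 for Il7r, 0.40 for Ccr7 and 0.69 for Cxcr4.

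The CFA arrays separated these 3 receptors. Il7r read 11.57 in H3RKO CFA and 11.61 in WT CFA, and Ccr7 read 11.37 in H3RKO CFA and 11.47 in WT CFA, close to untreated LN. Cxcr4 read 11.21 in H3RKO CFA and 11.37 in WT CFA, above the untreated range of 10.74 to 11.16. Some receptors found on B cells had their lowest level in WT CFA+PTX. Tnfrsf13c, the main receptor for BAFF, differed by −0.43 ± 0.15 after CFA+PTX, with 10.69 in the H3RKO array and 10.15 in the WT array against 10.73 to 10.98 in untreated LN. Without WT CFA+PTX its difference was −0.11, so that this array sets its size. Cxcr5, the receptor for the Cxcl13 product, read 10.89 in H3RKO CFA+PTX and 10.55 in WT CFA+PTX. Untreated LN gave 10.78 to 11.10, so that its H3RKO array lay within the untreated range. Tnfrsf13b of the same list read 11.31 in H3RKO CFA+PTX and 11.04 in WT CFA+PTX, against 11.32 to 11.48 in untreated LN. Its difference was −0.23 ± 0.09.

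Of the related ligands, Tnf differed by −0.35 ± 0.08 after CFA+PTX, the same direction as Lta, which lies in the same gene cluster (adjusted p = 0.221, limma). Tnfsf14 and Tslp differed by 0.06 and 0.02. Among 9 genes of NF-kB signalling downstream of Ltbr, the median was 0.04, and 5 were higher and 4 lower. Birc2, which encodes a ubiquitin ligase that restrains the alternative pathway, was higher by 0.31 ± 0.08, its relative Birc3 by 0.22 ± 0.07, the kinase subunit gene Ikbkg by 0.18 ± 0.06, and Map3k14, which encodes the kinase that starts the alternative pathway, by 0.17 ± 0.08. Among 5 adhesion and organiser genes of the stroma, 4 were higher and 1 lower. Chst4, a sulfotransferase of high endothelial venules, differed by 0.41 ± 0.13, Vcam1 by 0.36 ± 0.15, Glycam1 by 0.20 ± 0.10 and Madcam1 by −0.41 ± 0.23. WT CFA+PTX weighed on several of these: without it the difference was 0.084 for Map3k14, 0.23 for Chst4 and 0.12 for Glycam1. Madcam1 was at −0.21 without WT untreated replicate 1. Adjusted p-values of these NF-kB and adhesion genes ran from 0.244 to 0.522 (limma).

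**Figure D3:**
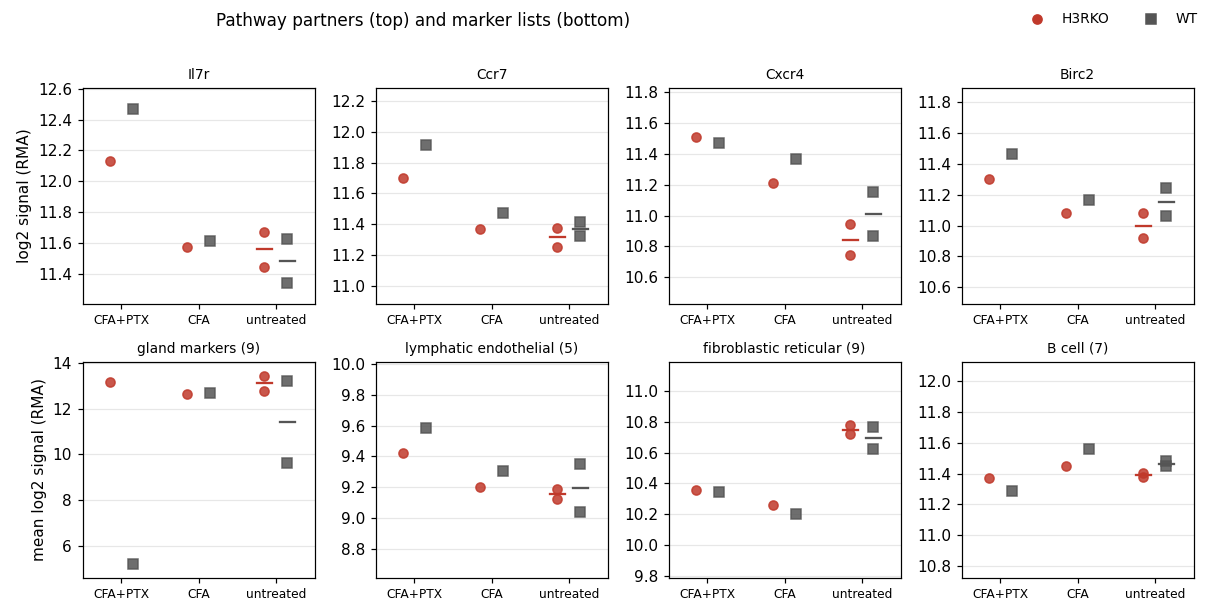
Top: log2 signal (RMA) of the partner genes Il7r, Ccr7, Cxcr4 and Birc2. Bottom: mean log2 signal of 4 marker lists with the number of genes in each. H3RKO arrays are circles, WT arrays squares, and short lines mark means of the untreated pairs. The CFA+PTX arrays lie highest for all 4 partners, and the gland markers are at 5.23 in the WT CFA+PTX array.

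Cell types that make or answer these cytokines were followed with marker lists, and in whole LN fewer cells of a type and less RNA per cell cannot be told apart. The mean over 9 fibroblastic reticular cell genes was 10.36 in H3RKO CFA+PTX and 10.34 in WT CFA+PTX, 10.26 in H3RKO CFA and 10.20 in WT CFA, and 10.62 to 10.78 in untreated LN. The low mean came from the collagen genes Col1a1, Col1a2, Col3a1 and Col6a1 and from Lum, each lower in all 4 treated arrays than in any untreated array. Pdpn, Pdgfrb and Dcn lay within their untreated ranges in both CFA+PTX arrays, and Pdgfra read 10.02 in H3RKO CFA+PTX and 10.05 in WT CFA+PTX, against 9.75 to 10.00 in untreated LN. The 5 lymphatic endothelial genes averaged 9.42 in H3RKO CFA+PTX and 9.58 in WT CFA+PTX, against 9.20 in H3RKO CFA and 9.30 in WT CFA and 9.04 to 9.35 in untreated LN. WT untreated replicate 1, the third highest array for Il7, was also the third highest here at 9.35. That is 1 array, with low gland signal, and a link between this list and Il7 was not tested. In the fitted difference from untreated LN, 4 of these 5 genes were higher after CFA+PTX and 1 was lower. The lower one was the defining gene Prox1, with 4.87 in H3RKO CFA+PTX and 4.74 in WT CFA+PTX, against 4.73 to 5.09 in untreated LN. Prox1 was dim, at 4.66 to 5.09 over all arrays, and Lyve1 read 11.63 to 12.17. The 8 blood and high endothelial genes averaged 9.85 in H3RKO CFA+PTX and 10.10 in WT CFA+PTX, against 9.70 to 9.78 in untreated LN, and all 8 were higher in the fitted difference.

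Follicles and fat were followed likewise. The 6 follicular dendritic cell genes are markers of the cells that make the Cxcl13 product. They averaged 10.30 in H3RKO CFA+PTX and 10.27 in WT CFA+PTX, against 10.28 to 10.35 in untreated LN. Their genes did not move together, with 3 higher and 3 lower in the fitted difference. Cr2 read 11.07 in H3RKO CFA+PTX and 10.71 in WT CFA+PTX, against 11.20 to 11.44 in untreated LN. Clu read 13.47 and 13.63 in the same arrays, against 13.40 to 13.50. The 7 B cell genes averaged 11.37 in H3RKO CFA+PTX and 11.29 in WT CFA+PTX, against 11.38 to 11.48 in untreated LN, and all 7 had a lower fitted level. The 6 adipocyte genes averaged 9.84 in H3RKO CFA+PTX and 10.24 in WT CFA+PTX, against 10.19 to 10.73 in untreated LN, and all 6 had a lower fitted level, with a median of −0.43. With the adipocyte level as a covariate, the CFA+PTX difference was 1.02 for Il7 and 0.88 for Tnfsf13b. The part of these cell types in the differences was otherwise not tested.

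Il7 was the only organiser gene that spanned more than 1 on the log2 scale. Of 8281 other genes with a mean log2 signal of at least 7, the ones with the most similar pattern over the 8 arrays were Slc10a6 (Pearson r = 0.976), Kdm3a (r = 0.967) and St6galnac3 (r = 0.966). They are a description, without a p, from arrays that share the gland difference. Slc10a6, a transporter of sulfated steroids, read 9.34 in H3RKO CFA+PTX and 9.64 in WT CFA+PTX, against 8.65 to 9.23 in untreated LN. WT untreated replicate 1 was its highest untreated array, as it was for Il7.

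Genotype was compared next, since the study asked whether loss of the H3 receptor alters LN gene expression at baseline and after the adjuvants. Over all treatments, H3RKO and WT LN were close for every organiser gene. The differences, H3RKO minus WT, ran from −0.15 ± 0.14 for Il7 and −0.11 ± 0.06 for Ltbr to 0.04 for Cxcl13 and 0.05 for Tnfsf11 (log2, limma, 4 arrays each). The gland markers were higher in H3RKO in all 9 genes, with a median of 2.97, and without WT untreated replicate 1 the Il7 difference was −0.018, against −0.30 without WT CFA. None passed an adjusted p under 0.05 (all 0.999, limma), as was so for 0% of probe sets, and at an unadjusted p under 0.05 there were 0 of 8 genes, against 3.64% of probe sets. The linear model without moderation and the trended and robust prior called 0 as well. No gene had all 4 H3RKO arrays beyond all 4 WT arrays, 0 of 8 against 1.68% of probe sets.

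In untreated LN, Il7 had the largest genotype difference, −0.38 ± 0.16, with 9.01 and 8.94 in H3RKO and 9.58 and 9.12 in WT. By this brightest probe set the H3RKO arrays lay below both WT arrays. The WT array that set the size was replicate 1, one of the 2 with low gland signal: without it the difference was −0.15. The dimmer probe set of Il7 gave −0.25 ± 0.18, and its genotypes overlapped. There H3RKO untreated replicate 1, at 6.42, lay above WT untreated replicate 2, at 6.28. Cxcl13 differed by 0.16 ± 0.11, and its second probe set by 0.33 ± 0.12, with 11.85 and 11.83 in H3RKO and 11.36 and 11.66 in WT. Without WT untreated replicate 1 the Cxcl13 difference was 0.043, and without WT untreated replicate 2 it was 0.28. The other 6 genes lay between −0.10 and 0.00. By the criterion of the study, which asks for a fold change over 2 together with an unadjusted p under 0.05, 0 of 8 genes passed, against 0.15% of probe sets. At an unadjusted p under 0.05 alone it was 0 of 8 by the brightest probe sets, against 5.43%, and the lowest adjusted p was 0.916 (limma). The second probe set of Cxcl13 had an unadjusted p of 0.0394 and an adjusted p of 0.916 (limma).

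After CFA, with 1 array a genotype, Tnfsf11 was higher in H3RKO by 0.33 ± 0.19, Tnfsf13b by 0.28 ± 0.12 and Il7 by 0.27 ± 0.23. Each lone array is assumed in the fit to vary like the untreated pairs. No gene met the criterion of the study, which 0.225% of probe sets met, and 0 of 8 had an unadjusted p under 0.05, against 3.38%. After CFA+PTX, Ltbr had the largest difference among the brightest probe sets, −0.30 ± 0.12, from 9.29 in the H3RKO array and 9.59 in the WT array. This comparison sets 1 H3RKO array against the WT array with little gland signal. All 9 gland markers met the criterion of the study in it, higher in H3RKO with a median of 8.22, and genotype and gland signal cannot be told apart here. By the brightest probe sets the other 7 genes differed by −0.18 to 0.09, and 7 of 8 were lower in H3RKO, with a median of −0.10 beside −0.02 over all probe sets. The second probe set gave −0.32 ± 0.26 for Il7 and −0.21 ± 0.17 for Cxcl13. None of the 8 genes met the criterion of the study, against 0.362% of probe sets, and 0 of 8 had an unadjusted p under 0.05, against 3.24%. The linear model without moderation and the trended and robust prior also had 0 genes in each of the 3 treatments.

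**Figure D4:**
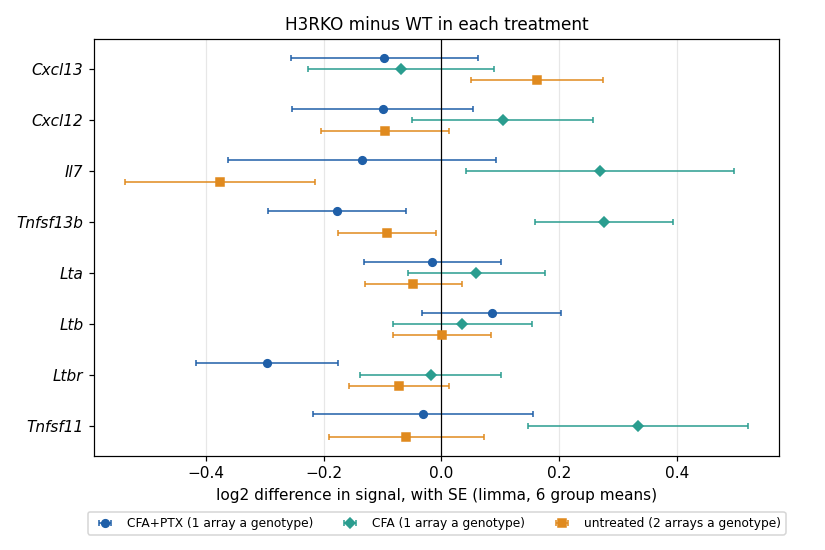
Log2 difference in signal, H3RKO minus WT (horizontal axis, limma with 6 group means, bars are SE), of the 8 organiser genes after CFA+PTX, after CFA and in untreated LN. Il7 lies at −0.38 in untreated LN and at 0.27 after CFA, and Ltbr at −0.30 after CFA+PTX.

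Whether the genotype difference depended on treatment was tested as an interaction. For CFA it was 0.65 ± 0.28 for Il7 (adjusted p = 0.88, limma) and 0.37 ± 0.14 for Tnfsf13b (adjusted p = 0.853, limma), the difference after CFA minus that in untreated LN. Without WT untreated replicate 1 the Il7 value was 0.42, and without WT untreated replicate 2 it was 0.87. For Tnfsf13b these values were 0.39 and 0.35. None of the 8 genes passed an adjusted p under 0.05, nor did any probe set (0%), and Tnfsf13b was the 1 gene with an unadjusted p under 0.05, against 5.72% of probe sets. For CFA+PTX the largest interaction among the brightest probe sets was −0.26 for Cxcl13. No gene passed (0% of probe sets), and 0 of 8 had an unadjusted p under 0.05, against 2.85%. The second probe set of Cxcl13 gave −0.54 ± 0.21, with an unadjusted p under 0.05 (limma) that did not pass after adjustment. The linear model without moderation and the trended and robust prior called 0 genes for both interactions. Differences between the genotypes in their response to the adjuvants were therefore not detectable after adjustment for these genes with 1 treated array each.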

How the data were processed

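LN RNA of 8 pools was hybridized to single-colour Affymetrix arrays. The deposited log2 signals are the output of RMA (Robust Multichip Average), which the authors ran in Partek Genomic Suite to give 1 background-adjusted, normalized value per probe set and array. They run from 2.42 to 14.40 (median 7.97). RMA sets all arrays to one distribution, so differences are relative to the whole array. Of 22690 probe sets, 64 controls were left out and 22626 tested. The platform annotation gives 20380 of them 1 gene, 691 several and 1555 none, and 20351 were matched to RefSeq by Entrez ID.

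Treatment differences, and the genotype difference over all treatments, were fitted with genotype and treatment as additive terms in limma 3.58.1 (R 4.3.3), leaving 4 residual degrees of freedom, and called at a Benjamini-Hochberg adjusted p under 0.05 over all probe sets. Genotype differences within a treatment and interactions came from a model of 6 group means (its 2 residual degrees of freedom are those of the untreated pairs), with the within-treatment differences called where the fold change exceeded 2 and the unadjusted p was under 0.05. Named genes were all members, up to 4 genes of each partner list with the largest difference after CFA+PTX, and the 3 genes most like a member that spanned more than 1 log2 unit. Cxcr5, Tnfrsf13b and the single marker genes named in the text were added after their values were seen. Members and lists were chosen with earlier results of these data known. The models were tested on simulated data. Alternatives were no moderation, a trended and robust prior, renormalization, centring, filters, second probe sets, each array left out, a replicate block, gland and adipocyte covariates and other criteria. Figures used matplotlib 3.10.9 (Python 3.11.15).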

Additional observations from a re-analysis of the deposited data

How the results depend on the processing

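For the 8 organiser genes in the pooled comparisons, 6 of their within-treatment or interaction values and 15 partner genes, 1021 refits of 53 values gave the same direction and side of the threshold in 980, the opposite sign in 39 and a new call in 2. The new calls, with a trended and robust prior, were Tnfsf13b (0.70) and Ccr7 (0.47) after CFA+PTX, with 1 member called where the main model called 0, among 33 probe sets in all. Part of the 980 was fixed in advance. A change of prior leaves the log2 difference as it was, and second probe sets exist only for Cxcl12, Cxcl13, Il7 and Tnfsf11. Leaving out other arrays cannot move a difference between 2 lone arrays, as for Tnfsf13b after CFA and Ltbr after CFA+PTX between the genotypes. The signs that turned belonged to differences of at most 0.18 in the main model, and the cause was not tested. The largest of them, 0.18 for Tnfsf13b after CFA, turned to −0.023 without the H3RKO CFA array. Centring gave Lta 0.017 after CFA and Ltbr −0.025 for CFA+PTX against CFA. The second probe set of Tnfsf11 gave −0.084 after CFA+PTX. With the gland covariate, Ltbr was −0.020 after CFA+PTX and −0.074 against CFA, Tslp −0.29, and the genotype difference 0.034 for Cxcl12 and 0.054 for Tnfsf13b. With the adipocyte covariate, Cxcl12 was 0.024 and Lta 0.038 after CFA, Tnfsf14 −0.023 and Tslp −0.055 after CFA+PTX, and the genotype difference 0.0073 for Lta and 0.057 for Tnfsf13b. Without WT CFA+PTX and WT untreated replicate 1 together, chosen after seeing the data, Ltbr was −0.069 and Tslp −0.34 after CFA+PTX.

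Leaving out 1 array at a time, values after CFA ranged from −0.17 to 0.031 for Cxcl12, −0.25 to 0.31 for Il7, −0.056 to 0.040 for Lta, −0.020 to 0.11 for Ltbr and −0.023 to 0.37 for Tnfsf13b, the low ends of Il7, Ltbr and Tnfsf13b without the H3RKO CFA array. CFA+PTX against CFA ranged from −0.11 to 0.13 for Ltbr. CFA+PTX against untreated LN ranged from −0.018 to 0.056 for Ltb, −0.069 to 0.17 for Ltbr and −0.36 to 0.41 for Tslp, and from 0.68 to 0.87 for Il7, 0.59 to 0.80 for Tnfsf13b, 0.29 to 0.48 for Cxcl13 and −0.33 to −0.31 for Lta. The genotype difference over all treatments ranged from −0.097 to 0.011 for Cxcl12, −0.032 to 0.085 for Cxcl13, −0.050 to 0.13 for Tnfsf11 and −0.12 to 0.030 for Tnfsf13b.

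The replicate block on the untreated arrays called 0 members in every comparison, with Il7 at 0.74 after CFA+PTX. The numbers mark only 2 pairs, whose deviations correlated at 0.123 over 22626 probe sets, and nothing in the labels ties them. Counts over the whole array were less stable: probe sets meeting the study's criterion numbered 34 in untreated LN, 51 after CFA and 82 after CFA+PTX, against 15, 16 and 30 without moderation, 112, 210 and 189 at a fold change over 1.5, 62 in untreated LN and 128 after CFA+PTX with the block, 115 in untreated LN without WT untreated replicate 2 and 52 without H3RKO untreated replicate 2, 22 there among probe sets above a mean log2 signal of 6, and 20, 34 and 49 without probe sets that may cross-hybridize. The criterion of the study gave 25, 35 and 15 probe sets and 0 members for CFA, CFA+PTX and CFA+PTX against CFA.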
